A study of Mus musculus with 15 samples.

Results

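The transcripts of 9 genes of vessel growth signalling were followed in brown preadipocytes: the ligands Vegfa, Vegfb, Vegfc and Pgf with their receptors Kdr and Flt1, and the ligands Angpt1 and Angpt2 with their receptor Tek. They were taken by symbol from the deposited RPKM table (reads per kilobase of transcript per 1 M mapped reads), which holds 29072 symbols. Where a symbol had several lines, one per annotated transcript, the line with the highest mean over the 15 libraries was used. Of the 9 genes, 8 reached 0.5 RPKM in at least 3 libraries and were tested; Flt1 did not. Kdr and Tek reached that level only through the control and FGF1 libraries, and Pgf only through FGF8b, FGF9 and BAY-876 libraries, so their place among the tested genes is itself tied to a difference between groups.

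The cells were preadipocytes of the stromal-vascular fraction of interscapular brown fat from 129SvEv mice, immortalised with the SV40 large T antigen. There were 5 groups of 3 libraries: controls listed with no agent, cells given FGF1, cells given FGF8b, cells given FGF9, and cells given FGF8b together with BAY-876, which blocks glucose uptake through GLUT1. The study's description gives each FGF at 5.56 nM for 48 h with heparin at 1 µg/ml, and BAY-876 at 2 µM. The labels do not say whether the controls received heparin or were kept for the same time, and no group received BAY-876 or heparin alone. Nor do they state if the libraries came from independent cultures. The p-values below therefore rest on library-to-library spread, which may be technical. The immortalisation and its antigen are common to all groups.

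VEGF ligands are secreted dimers that bind receptor tyrosine kinases, chiefly on endothelial cells. VEGFA signals mainly through KDR (VEGFR2), whereas VEGFB and PGF bind FLT1 (VEGFR1), which also holds VEGFA away from KDR. VEGFC acts mainly on FLT4 (VEGFR3) and on lymphatic vessels. ANGPT1 activates TEK (the receptor TIE2) and steadies vessels, and ANGPT2 acts on the same receptor as a context-dependent antagonist. In brown fat, dense vessels supply oxygen and fuel for heat production, and the fat cells and their precursors are a source of VEGFA.

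The 250 bases before the annotated start of 3 of the ligand genes are shown because these ligands moved in different directions under the same agents. They are from RefSeq on GRCm38.p6, 5′ to 3′ on the gene's strand, and 7 of the 9 genes had an entry in that table. The Vegfa window is chr17:46032378-46032627 on the minus strand, that of Vegfb is chr19:6987652-6987901 on the minus strand, and that of Vegfc is chr8:54077282-54077531 on the plus strand. Capitals mark the letters of any of 6 motifs, searched on both strands: GGGCGG (the GC box), ACGTG and GCGTG (cores of the hypoxia response element), TGANTCA (AP-1), TGATGNAA (ATF4) and CCGGAA (ETS).
Vegfa: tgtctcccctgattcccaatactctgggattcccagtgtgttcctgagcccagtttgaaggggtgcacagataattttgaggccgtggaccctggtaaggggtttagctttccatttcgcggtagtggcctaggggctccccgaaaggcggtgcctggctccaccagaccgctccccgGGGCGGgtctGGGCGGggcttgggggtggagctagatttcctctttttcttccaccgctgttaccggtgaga
Vegfb: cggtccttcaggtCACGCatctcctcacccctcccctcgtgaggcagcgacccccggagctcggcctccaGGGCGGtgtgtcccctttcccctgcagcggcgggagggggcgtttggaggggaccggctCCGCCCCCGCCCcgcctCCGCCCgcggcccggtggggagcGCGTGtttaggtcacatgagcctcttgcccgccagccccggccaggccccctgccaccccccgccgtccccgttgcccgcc
Vegfc: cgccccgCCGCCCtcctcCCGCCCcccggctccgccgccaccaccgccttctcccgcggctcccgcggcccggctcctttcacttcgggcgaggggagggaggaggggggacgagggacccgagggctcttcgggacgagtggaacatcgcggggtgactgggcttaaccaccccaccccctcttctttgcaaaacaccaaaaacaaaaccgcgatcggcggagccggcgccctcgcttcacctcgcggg
The GC box was found 2 times in the Vegfa window, 4 times in the Vegfb window and 2 times in the Vegfc window, with overlapping matches counted separately. GCGTG was found 2 times in the Vegfb window. None of the other motifs was found in these 3 windows, which says only that those letters are not there. Over all 32851 promoter windows of this length, 32.7% held GGGCGG, 28.2% GCGTG, 16.6% ACGTG, 12% CCGGAA, 6.75% TGANTCA and 3.45% TGATGNAA. The GC box is thus a common feature, and the windows of the 3 ligands do not differ in having it.

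The steps between low RPKM values gave each library's depth, 27.01 to 42.64 M mapped reads, and reads per gene. No library stood apart: correlations of log2 levels over genes were 0.9966 to 0.9985 within groups. Changes were tested with limma on log2(RPKM + 0.5) over 13869 genes, with Benjamini-Hochberg adjustment and a threshold of 0.05. A log2 change on this scale understates the change of genes near or under 0.5 RPKM, so read totals are given for those. Much of the transcriptome passed this test: 34.4% of genes for FGF1 against control, 64.4% for FGF8b against control, 65.7% for FGF9 against control and 57.3% for FGF8b plus BAY-876 against FGF8b. The share that was higher among called genes was 56.1%, 58.6%, 58.9% and 39.3% in these comparisons, and 45.6%, 47.6%, 48.2% and 49.5% after trimmed-mean scaling. Against these shares, 7 of the 8 tested members were called for FGF1, 6 for FGF8b, 7 for FGF9 and 7 for BAY-876 added to FGF8b. Being called was therefore common among all genes, and the direction and size of each change are the measurements of interest.

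**Figure D1:**
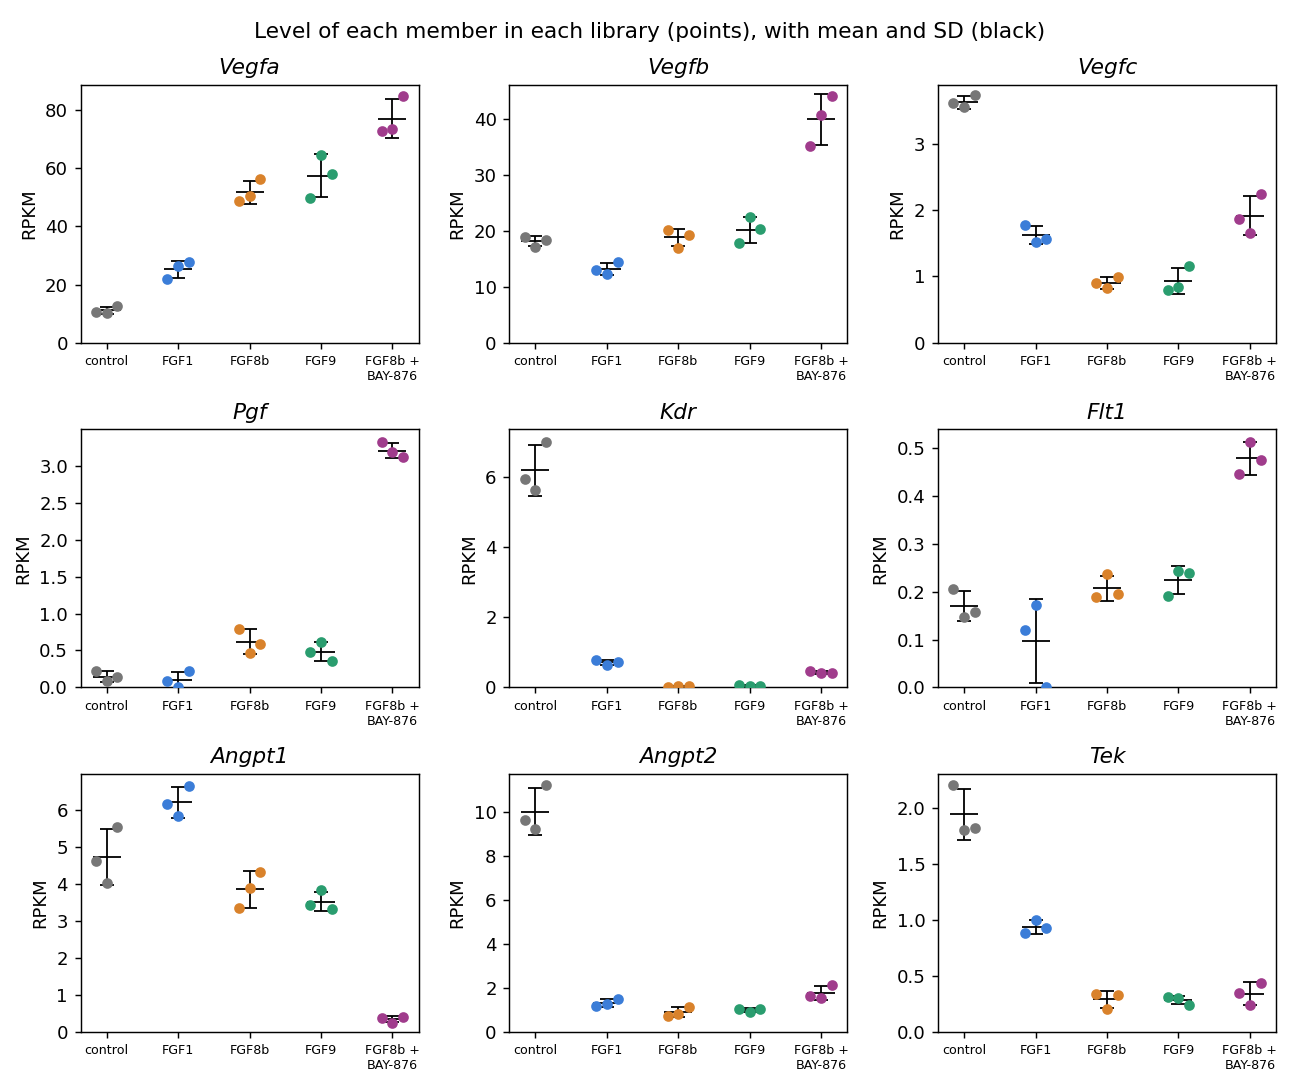
Level in RPKM (vertical axes, each from 0) of the 9 genes in the 15 libraries by group; points are libraries, black bars the mean and SD of 3. Vegfa climbs from 10.3 to 12.6 in controls to 72.8 to 84.8 with FGF8b plus BAY-876, while Kdr, Angpt2 and Tek are highest in controls.

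Vegfa, the main endothelial growth factor of the family, was raised by each FGF and further by BAY-876. Its level was 10.6, 10.3 and 12.6 RPKM in the controls, 22, 26.2 and 27.6 RPKM with FGF1, and 48.6, 50.4 and 56.2 RPKM with FGF8b. It was 49.8, 64.5 and 58 RPKM with FGF9 and 72.8, 73.5 and 84.8 RPKM with FGF8b plus BAY-876. The libraries of FGF8b and FGF9 overlapped, and all other neighbouring groups in this order were separate. The mean rose from 11.2 ± 1.23 (SD, n = 3) in controls to 25.3 ± 2.89 with FGF1, a log2 change of 1.14 ± 0.11 (SE; limma adjusted p = 6.09e-07). With FGF8b the mean was 51.7 ± 4 RPKM, 4.64 times the control mean (log2 change 2.17 ± 0.11, limma adjusted p = 7.04e-11), and with FGF9 it was 5.15 times the control mean. BAY-876 added to FGF8b raised it by a further 1.49 times (log2 change 0.57 ± 0.11, limma adjusted p = 3.03e-04).

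The rise was seen along the whole gene. All 17 Vegfa lines of the table were higher than control with each FGF, by 1.86 to 2.26 on the log2 scale with FGF8b. They include a line with exon 7 of the 8-exon transcript ENSMUST00000113520 and a line without it. This coding exon belongs to the heparin- and neuropilin-binding part of the longer VEGFA forms, and is shown because it tells soluble from matrix-binding forms (GENCODE vM21, GRCm38, chr17:46020991-46021122, minus strand, all in lower case):
Vegfa exon 7: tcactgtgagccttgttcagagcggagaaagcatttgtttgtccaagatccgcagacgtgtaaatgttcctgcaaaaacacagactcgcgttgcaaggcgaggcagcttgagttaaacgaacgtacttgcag
The RPKM of the line with the exon over that of the line without was 0.974 ± 0.0265 (SD, n = 3) in controls, 0.954 ± 0.028 with FGF8b and 0.953 ± 0.00888 with FGF8b plus BAY-876. These means differed by less than the spread between control libraries. The 2 lines share most of their exons and reads in shared exons count for both, so the ratio shows only that reads covered the exon at a like rate in these groups.

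Vegfb, a ligand of FLT1 tied to fatty acid handling, followed another order. It was 18.9, 17.1 and 18.3 RPKM in controls, 13, 12.3 and 14.4 RPKM with FGF1, and 20.1, 17 and 19.2 RPKM with FGF8b. It was 17.8, 22.4 and 20.3 RPKM with FGF9 and 35.1, 40.6 and 44 RPKM with FGF8b plus BAY-876. The FGF1 libraries were below all others and the BAY-876 libraries above all others, while control, FGF8b and FGF9 libraries overlapped. Vegfb fell with FGF1 (log2 change -0.44 ± 0.10 SE, limma adjusted p = 0.00223) and was 2.12 times as high with BAY-876 as with FGF8b alone (log2 change 1.06 ± 0.10, limma adjusted p = 2.09e-07). With FGF8b against control its log2 change was 0.05 (95% interval -0.16 to 0.26, limma adjusted p = 0.668), or -0.05 after trimmed-mean scaling.

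Vegfc, the lymphatic ligand, was highest in controls. Its level was 3.61, 3.55 and 3.74 RPKM in controls, 1.78, 1.52 and 1.57 RPKM with FGF1, and 0.904, 0.819 and 0.996 RPKM with FGF8b. With FGF9 it was 0.798, 0.844 and 1.16 RPKM, and with FGF8b plus BAY-876 1.87, 1.65 and 2.24 RPKM. FGF1 and BAY-876 libraries overlapped in the middle of the range, and FGF8b and FGF9 libraries overlapped at its foot. Vegfc fell with FGF1 (log2 change -0.96 ± 0.11 SE), with FGF8b (-1.56 ± 0.11, limma adjusted p = 5.51e-09) and with FGF9 (-1.54 ± 0.11). BAY-876 added to FGF8b raised it by 0.78 on the log2 scale (limma adjusted p = 2.20e-05), which left it at -0.78 against control (limma adjusted p = 1.13e-05).

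Pgf, placental growth factor, was near the detection limit without FGF8b or FGF9. It had 12, 4 and 8 reads (0.219, 0.0807 and 0.136 RPKM) in controls and 4, 0 and 10 reads with FGF1. It was 0.797, 0.464 and 0.586 RPKM with FGF8b, 0.478, 0.613 and 0.359 RPKM with FGF9, and 3.33, 3.19 and 3.12 RPKM with FGF8b plus BAY-876. All BAY-876 libraries lay above every other library. Pgf rose with FGF8b against control (log2 change 0.79 ± 0.14 SE, limma adjusted p = 1.82e-04) and again with BAY-876 (1.74 ± 0.14, limma adjusted p = 6.50e-08). Scaled to mapped reads, 550 reads against 91 gave a BAY-876 level 5.27 times that of FGF8b alone (95% interval 4.21 to 6.65, exact, counting error only). With FGF1 the log2 change was -0.12 (limma adjusted p = 0.576).

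Kdr, the main signalling receptor for VEGFA, had the largest fall among the 8 tested genes. It was 5.93, 5.61 and 7 RPKM in controls and 0.777, 0.624 and 0.727 RPKM with FGF1. With FGF8b only 1, 3 and 3 reads remained (0.0123, 0.0322 and 0.0406 RPKM), and with FGF9 7, 5 and 3 reads. With FGF8b plus BAY-876 there were 45, 31 and 44 reads (0.466, 0.401 and 0.395 RPKM). FGF8b and FGF9 libraries overlapped, and the other groups did not overlap with any neighbour.

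The log2 change of Kdr against control was -2.46 ± 0.09 (SE) with FGF1 (limma adjusted p = 4.17e-11), -3.65 ± 0.09 with FGF8b (3.26e-14) and -3.60 ± 0.09 with FGF9 (3.27e-14). In reads, which are not flattened by the pseudocount, control exceeded FGF1 by 8.71 times (95% interval 7.42 to 10.3, exact, counting error only) and FGF8b by 221 times (107 to 550). BAY-876 added to FGF8b raised Kdr by 0.80 ± 0.09 (limma adjusted p = 2.82e-06), from 7 to 120 reads in 3 libraries. Against control it was still lower, with a log2 change of -2.85 (limma adjusted p = 2.52e-13). All 5 Kdr lines were lower than control with each FGF and higher with BAY-876 than with FGF8b alone.

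Flt1, the high-affinity receptor and decoy for VEGFA, was at most 0.514 RPKM in any library. It had 17, 11 and 14 reads in controls, 9, 11 and 0 with FGF1, 14, 20 and 13 with FGF8b, and 18, 24 and 21 with FGF9. It had 39, 36 and 48 reads with FGF8b plus BAY-876 (0.446, 0.514 and 0.476 RPKM), which lay above every other library. The 123 reads there against 47 with FGF8b alone gave a ratio of 2.28 (95% interval 1.62 to 3.26, exact, counting error only). In a fit with no filter on low values its log2 change was 0.47 ± 0.09 (SE, limma adjusted p = 6.80e-04) for this comparison. In the same fit it was not called for FGF1, FGF8b or FGF9 against control, with log2 changes of -0.18, 0.08 and 0.11 and adjusted p of 0.185, 0.528 and 0.333.

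**Figure D2:**
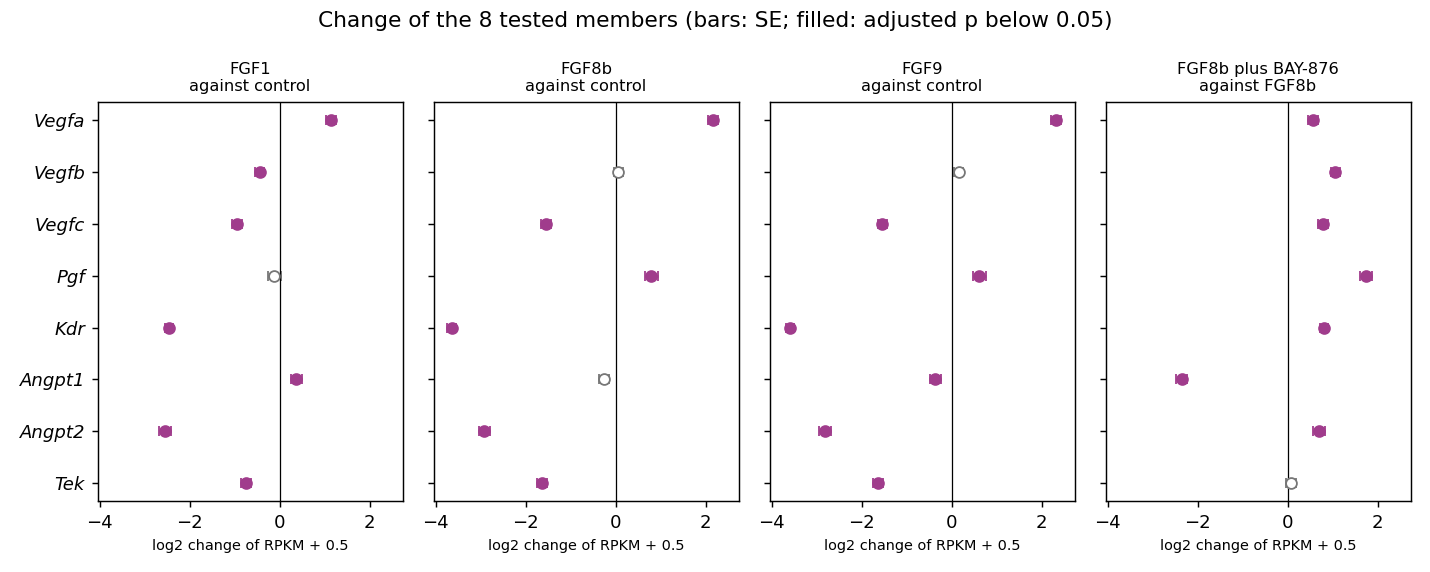
Log2 change of RPKM + 0.5 (horizontal axis) of the 8 tested genes in 4 comparisons; bars are SE over 3 libraries a group, filled points passed an adjusted p of 0.05. Vegfa lies right of 0 in each panel, and Kdr, Angpt2 and Vegfc move from left of 0 with FGFs to right of 0 with BAY-876.

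The 2 angiopoietins, which compete for TEK, differed in their response. Angpt2 was 9.61, 9.22 and 11.2 RPKM in controls and 1.15, 1.25 and 1.51 RPKM with FGF1. It was 0.738, 0.816 and 1.14 RPKM with FGF8b, 1.04, 0.886 and 1.03 RPKM with FGF9, and 1.62, 1.55 and 2.12 RPKM with FGF8b plus BAY-876. Controls were far above all other groups, and only FGF8b and FGF9 overlapped. Angpt2 fell with each FGF, with log2 changes of -2.55 ± 0.13 (SE) for FGF1 (limma adjusted p = 7.36e-10), -2.92 ± 0.13 for FGF8b (1.52e-11) and -2.82 ± 0.13 for FGF9 (2.09e-11). BAY-876 added to FGF8b raised it by 0.70 ± 0.13 (limma adjusted p = 2.29e-04), to 1.97 times the FGF8b mean.

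Angpt1 differed little from control under the FGFs and fell with BAY-876. It was 4.63, 4.02 and 5.54 RPKM in controls, 6.17, 5.82 and 6.65 RPKM with FGF1, 3.34, 3.89 and 4.32 RPKM with FGF8b, and 3.42, 3.82 and 3.32 RPKM with FGF9. With FGF8b plus BAY-876 it was 0.386, 0.241 and 0.409 RPKM, from 18, 9 and 22 reads. The BAY-876 libraries lay below every other library, and FGF8b overlapped with both control and FGF9. Angpt1 fell by 2.36 ± 0.12 (SE) on the log2 scale with BAY-876 against FGF8b (limma adjusted p = 2.46e-10), where FGF8b exceeded BAY-876 by 10.8 times in reads (95% interval 8.01 to 14.8, exact, counting error only).

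Whether the smaller Angpt1 changes were called depended on the libraries and the transcript line. With FGF1 it was called higher (log2 change 0.37, limma adjusted p = 0.0256), but the adjusted p was 0.129 without control replicate 2, 0.063 without control replicate 1, 0.059 without FGF1 replicate 1 and 0.0956 without FGF1 replicate 3. With FGF9 it was called lower (-0.37, limma adjusted p = 0.0124), with an adjusted p of 0.0728 without control replicate 3. With FGF8b its log2 change of -0.26 was not called (limma adjusted p = 0.0655), and after trimmed-mean scaling it was called at -0.36 (0.0129). It was also called on the RefSeq line (-0.23, limma adjusted p = 0.0307), without control replicate 2 (-0.36, 0.0214) and without FGF8b replicate 3 (-0.34, 0.0346). On the RefSeq line Angpt1 was called with FGF1 (0.37, limma adjusted p = 0.00295) and with FGF9 (-0.30, 0.00633) as well. All 8 Angpt1 lines were above control with FGF1 and below it with FGF8b and FGF9.

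**Figure D3:**
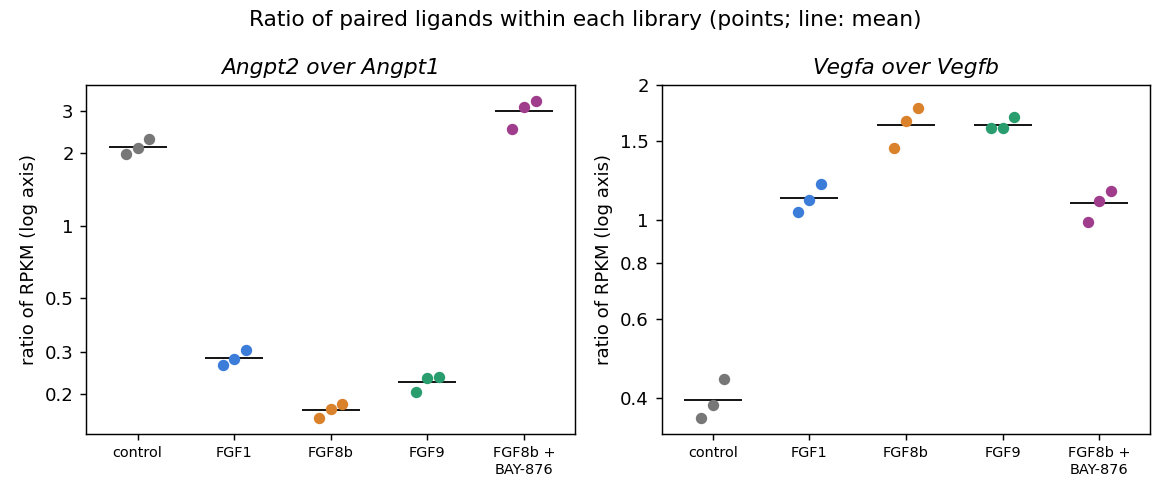
Ratio of 2 ligands' RPKM within each library (log axes), from the RefSeq lines of each gene, by group; points are libraries in order of value and lines their mean. Angpt2 over Angpt1 is 1.99 to 2.3 in controls, at most 0.304 with each FGF and 2.53 to 3.3 with FGF8b plus BAY-876.

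The balance of the 2 angiopoietins therefore went down with each FGF and up again with BAY-876. From the RefSeq line of each gene, Angpt2 over Angpt1 was 2.13 ± 0.156 (SD, n = 3) in controls, 0.282 ± 0.0204 with FGF1, 0.171 ± 0.0116 with FGF8b and 0.224 ± 0.0179 with FGF9. With FGF8b plus BAY-876 it was 2.98 ± 0.399. On the lines with the highest mean, which the levels above use, it was 2.13 ± 0.142 in controls, 0.209 ± 0.0209 with FGF1, 0.232 ± 0.0283 with FGF8b, 0.282 ± 0.0432 with FGF9 and 5.27 ± 1.13 with BAY-876. The size of the BAY-876 ratio and the order of the FGFs, with FGF1 highest on RefSeq lines and lowest here, thus depend on the line. Vegfa over Vegfb, from RefSeq lines, was 0.396 ± 0.0409 in controls, 1.12 ± 0.0765 with FGF1, 1.63 ± 0.166 with FGF8b, 1.63 ± 0.0571 with FGF9 and 1.09 ± 0.0892 with FGF8b plus BAY-876. For each of these ratios the control libraries overlapped with no other group, and no test was run on them.

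Tek, the angiopoietin receptor, fell with each FGF, and no change with BAY-876 against FGF8b was detected. It was 2.2, 1.8 and 1.82 RPKM in controls, 0.882, 1 and 0.926 RPKM with FGF1, and 0.338, 0.201 and 0.33 RPKM with FGF8b. It was 0.306, 0.305 and 0.238 RPKM with FGF9 and 0.343, 0.235 and 0.438 RPKM with FGF8b plus BAY-876, and these last 3 groups overlapped. Its log2 change against control was -0.76 ± 0.11 (SE) with FGF1 (limma adjusted p = 5.44e-05), -1.63 ± 0.11 with FGF8b (2.98e-09) and -1.64 ± 0.11 with FGF9 (2.51e-09). In reads, 844 in controls against 345 with FGF1, 113 with FGF8b and 141 with FGF9, control exceeded FGF1 by 2.08 times (95% interval 1.83 to 2.37, exact, counting error only), FGF8b by 6.83 times (5.61 to 8.39) and FGF9 by 6.83 times (5.71 to 8.22). BAY-876 against FGF8b gave a log2 change of 0.08 (95% interval -0.15 to 0.32, limma adjusted p = 0.534) and a read ratio of 1.23 (0.964 to 1.58, counting error only).

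Set directly against each other, FGF1 differed from FGF8b and FGF9 for most of these genes, in the size or the direction of change. FGF8b against FGF1, where 59.9% of all genes were called, gave 8 of 8 tested members: Vegfa, Vegfb and Pgf higher, and Vegfc, Kdr, Angpt1, Angpt2 and Tek lower. The log2 change between FGF8b and FGF1 was -1.19 ± 0.09 (SE) for Kdr (limma adjusted p = 2.32e-08), 1.02 ± 0.11 for Vegfa (6.57e-07) and -0.87 ± 0.11 for Tek (5.41e-06). Both receptors are under the pseudocount with FGF8b, so these values understate their falls. In reads, FGF1 exceeded FGF8b by 25.3 times for Kdr (95% interval 12 to 64, exact, counting error only) and by 3.28 times for Tek (2.65 to 4.09). FGF9 against FGF1, with 61.9% of all genes called, gave 7 of 8. The exception was Angpt2 (log2 change -0.28, limma adjusted p = 0.0699), which was called after trimmed-mean scaling (-0.34, 0.0265).

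The Angpt2 difference from FGF1 depends on the transcript line. The line with the highest mean is a transcript of 652 bases (ENSMUST00000170200), which gave -0.37 for FGF8b against FGF1 (limma adjusted p = 0.0192). That call was lost without FGF1 replicate 3, FGF8b replicate 1 or FGF8b replicate 2 (adjusted p 0.0905, 0.0908 and 0.0644). On the RefSeq line of 2475 bases the change was -0.93 for FGF8b (limma adjusted p = 3.12e-08) and -0.75 for FGF9 (3.26e-07).

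FGF9 and FGF8b were not told apart by these genes. Limma called 0 of the 8 members, of which 0 had an unadjusted p under 0.05, and limma voom on the recovered reads also called 0. Over all genes this comparison called 0.296%. The 95% intervals of the FGF9 minus FGF8b log2 difference were -0.08 to 0.37 for Vegfa and -0.18 to 0.37 for Angpt2. Kdr, Pgf and Tek are near or under the pseudocount in both groups, where that scale is flattened, so their bounds are given in reads. FGF9 over FGF8b was 1.72 for Kdr (95% interval 0.659 to 4.98, exact, counting error only; 15 and 7 reads), 0.801 for Pgf (0.592 to 1.08) and 1 for Tek (0.775 to 1.29).

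With FGF8b plus BAY-876 against untreated control, 72.7% of all genes were called and 8 of 8 tested members were. Vegfa, Vegfb and Pgf were higher, and Vegfc, Kdr, Angpt1, Angpt2 and Tek were lower. Vegfa rose by 2.74 ± 0.11 (SE) on the log2 scale, to 6.9 times control (limma adjusted p = 2.20e-12). Pgf rose by 2.53 ± 0.14 (limma adjusted p = 2.15e-10), and its read level was 21.8 times control (95% interval 14.5 to 34.4, exact, counting error only). In bulk RNA, fewer cells carrying a transcript and less of it per cell cannot be told apart.

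Markers of other cell types that such a culture could hold were low beside preadipocyte and stromal markers. Single ones reached the level of a receptor among the members. In controls mural Mcam was 2.22 and macrophage Itgam 1.97 RPKM, beside 1.94 RPKM for Tek. Of 15 endothelial markers, 3 reached the level for testing, and their summed level was 2.4 to 4.16 RPKM over control libraries, 4.16 to 4.33 with FGF1, 1.66 to 2.62 with FGF8b, 1.56 to 2.04 with FGF9 and 1.93 to 2.01 with BAY-876. Sox17 was at 0 in all groups, Cldn5 and Icam2 in controls and with FGF1, and Pecam1 and Cdh5, which define endothelium, had group means of at most 0.0813 and 0.0614 RPKM. Ecscr made up most of the sum in controls, at 2.69 RPKM there against 1.24 with FGF8b (log2 change -0.88, limma adjusted p = 0.0015). The 3 tested markers did not move together. With BAY-876 against FGF8b, Vwf rose from 0.0117 to 1.11 RPKM (log2 change 1.65, limma adjusted p = 1.60e-10). In the same comparison Ecscr fell from 1.24 to 0.303 RPKM (-1.07, limma adjusted p = 3.92e-04). With FGF1 against control, Plvap rose from 0.366 to 0.791 RPKM (0.57, limma adjusted p = 0.0058) and the other 2 were not called. Thus Kdr at 6.18 RPKM and Tek at 1.94 RPKM in controls were measured with Pecam1 at 0.00998 RPKM; the part of Ecscr- or Vwf-expressing cells in the receptor changes was not tested. Mural markers summed to 5.22 to 8.96 RPKM and macrophage markers to 3.61 to 6.24 RPKM over all libraries, and Emr1, C1qa, C1qb and C1qc were at 0 in all groups. Of 11 mural markers 6 were tested, and single ones moved with the members: FGF8b against control raised Cspg4 (0.895 to 2.15 RPKM), Cox4i2 (0.0557 to 0.621) and Mcam (2.22 to 3.52) and lowered Notch3 (0.76 to 0.401) and Vtn (1.1 to 0.0323 RPKM, log2 change -1.59, limma adjusted p = 3.80e-10). Of 12 macrophage markers 4 were tested, and the called ones did not share a direction. Lyz2 fell from 0.764 RPKM in controls to 0.286 with FGF1 and 0.0569 with FGF8b (log2 change -1.18, limma adjusted p = 9.42e-09). Csf1r rose from 0.888 to 1.29 RPKM with FGF1 (log2 change 0.37, limma adjusted p = 0.0198). Itgam rose from 1.97 to 2.75 RPKM with FGF8b (log2 change 0.42, limma adjusted p = 0.0219), a call lost after trimmed-mean scaling. Vwf reached the level for testing only through BAY-876 libraries, and Vtn and Lyz2 only through control or FGF1 libraries. By group means, Cox4i2 was over 0.5 RPKM only with FGF8b, Notch3 only in controls and with FGF1, and Plvap only with FGF1 and FGF9. The place of these genes among the tested ones is thus itself tied to a difference between groups. The part of these markers in the member changes was not tested.

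Preadipocyte and stromal markers, which fit the labelled cell type, were abundant and moved with the groups. All 12 were detected in each group, and their sum was 3423 to 3948 RPKM over control libraries, 2516 to 2551 with FGF1, 1504 to 1616 with FGF8b, 1555 to 1616 with FGF9 and 294 to 307 with BAY-876. The markers did not all follow the sum. FGF1 against control lowered 6 of the 12 and raised 2, where 34.4% of all genes were called. FGF8b against control lowered 8 and raised 4, where 64.4% were called. Those raised by FGF8b include Dcn (475 to 806 RPKM) and Lum (11.8 to 24.9 RPKM). Against FGF8b, where 57.3% of all genes were called, BAY-876 lowered 10 of the 12 and raised 2. Lum, a matrix proteoglycan, went from 24.9 to 0.0563 RPKM. The part of this shift in the fall of Angpt1 was not tested.

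Other genes of the pathway were taken from 5 lists. Of 8 further receptors and ligands, 5 were tested, and FGF8b against control raised 1 and lowered 4, where 64.4% of all genes were called. The median log2 change was -1.54 beside 0.08 over all genes. Figf, which encodes VEGFD, was the most abundant of the VEGF ligands in controls at 63.1 ± 5.38 RPKM (SD, n = 3) and fell to 33.8 ± 1.26 with FGF1, 2.46 ± 0.4 with FGF8b and 2.14 ± 0.0793 with FGF9. With BAY-876 it fell again, to 1.29 ± 0.0779 RPKM (log2 change -0.72, limma adjusted p = 5.98e-06). So the 2 ligands of FLT4, Vegfc and Figf, both fell with FGF8b, and parted with BAY-876.

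The coreceptors and the remaining receptor did not move as 1 group. Nrp1, a coreceptor for VEGFA, was 41.3 ± 2.35 RPKM (SD, n = 3) in controls, 53.9 ± 2.8 with FGF1 and 14.5 ± 0.895 with FGF8b, and was called in both comparisons. Nrp2, a coreceptor for VEGFC, went from 4.14 ± 0.276 in controls to 1.1 ± 0.0836 with FGF8b and 10.9 ± 0.181 with BAY-876, a log2 change of 2.83 against FGF8b (limma adjusted p = 7.65e-13). Svep1, a matrix protein needed for lymphatic vessel growth, fell from 42.2 ± 3.13 to 2.35 ± 0.434 RPKM with FGF8b. Flt4, the receptor for VEGFC and named as the fifth tested gene of the list, was 0.408 RPKM in controls, 0.639 with FGF8b and 2.45 with BAY-876, where it rose by 1.37 (limma adjusted p = 8.18e-09).

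**Figure D4:**
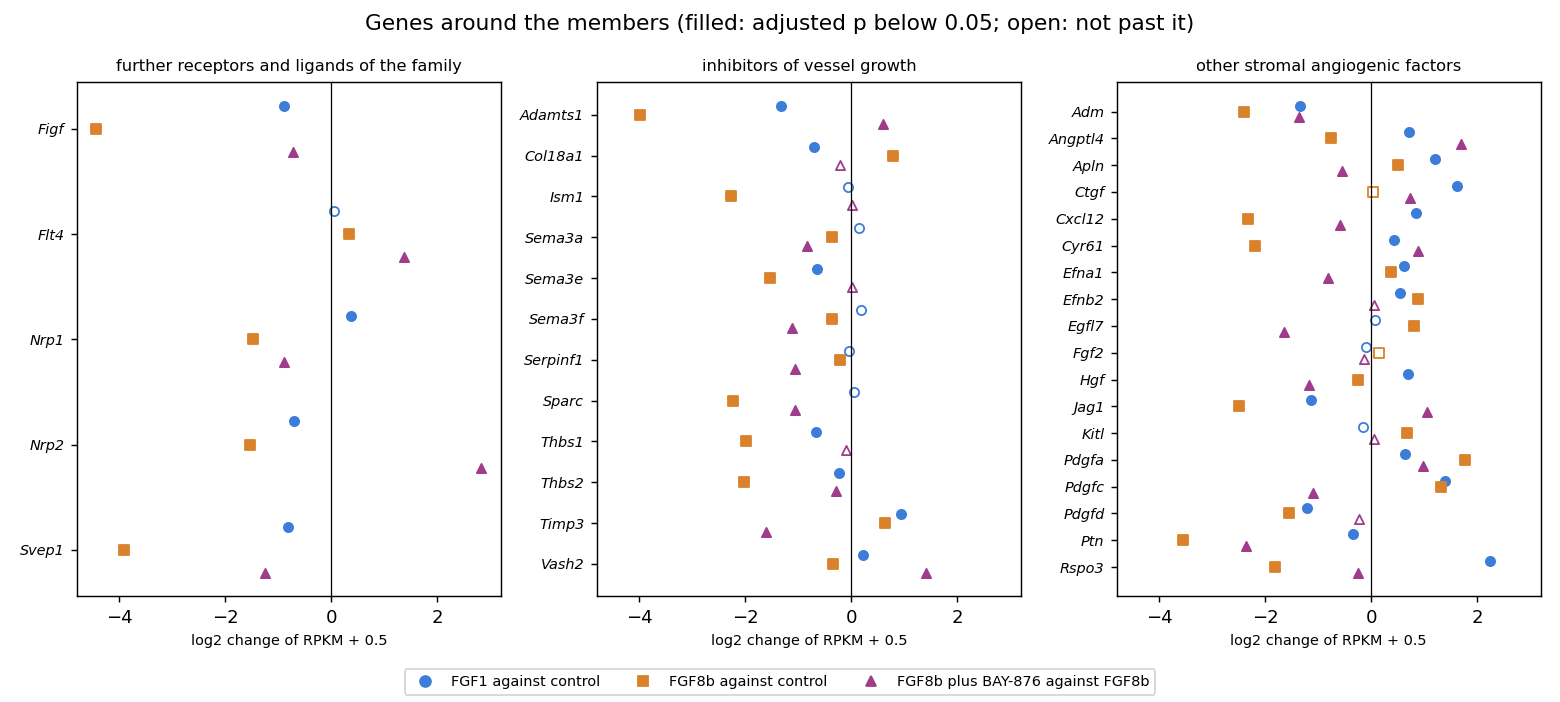
Log2 change of RPKM + 0.5 (horizontal axis) of the tested genes of 3 lists, with FGF1 (circles) and FGF8b (squares) against control and FGF8b plus BAY-876 against FGF8b (triangles); filled points passed an adjusted p of 0.05. Figf, Svep1, Adamts1 and Ptn lie farthest left with FGF8b, and Nrp2 lies farthest right with BAY-876.

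Genes listed as inhibitors of vessel growth mostly fell with FGF8b. Of 12 tested, 2 rose and 10 fell, where 64.4% of all genes were called. The median log2 change was -0.96 beside 0.08 over all genes. FGF1 raised 2 and lowered 5 (median -0.06), where 34.4% of all genes were called. Adamts1, a protease that releases inhibitory thrombospondin fragments, went from 143 ± 2.45 RPKM (SD, n = 3) in controls to 57.2 ± 3.19 with FGF1 and 8.56 ± 0.498 with FGF8b. Thbs2, thrombospondin 2, went from 453 ± 24.5 to 112 ± 4.2 with FGF8b, Sparc from 1294 ± 47 to 277 ± 27.8, and Ism1 (isthmin) from 2.09 ± 0.361 to 0.0351 ± 0.0129. Ism1 reached the level for testing only through control and FGF1 libraries. BAY-876 added to FGF8b raised 2 and lowered 6 of the 12, where 57.3% of all genes were called. These counts include Vash2, whose place on a list of inhibitors is not settled. Its log2 changes were -0.34 for FGF8b and 0.23 for FGF1 against control and 1.41 for BAY-876 against FGF8b. The role of each listed gene in vessel growth was not tested.

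Other stromal angiogenic factors split by agent. Of 18 tested, FGF1 raised 11 and lowered 4 (median log2 change 0.58 beside 0.02 over all genes), where 34.4% of all genes were called. FGF8b raised 7 and lowered 9 (median -0.11), where 64.4% were. Cxcl12, a chemokine that draws endothelial and blood progenitors, rose from 431 ± 32.8 RPKM (SD, n = 3) to 769 ± 10.6 with FGF1 and fell to 85.5 ± 5.43 with FGF8b. Ptn, pleiotrophin, fell from 850 ± 69.7 to 672 ± 24 with FGF1, 71.8 ± 2.57 with FGF8b and 13.7 ± 2.69 with BAY-876. Adm, the vasodilator adrenomedullin, fell from 41.4 ± 3.59 to 16 ± 1.3 with FGF1 and 7.43 ± 0.168 with FGF8b. Jag1, a Notch ligand, fell from 6.45 ± 0.316 to 0.74 ± 0.224 with FGF8b and was 2.05 ± 0.0789 with BAY-876.

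Genes that control Vegfa transcript moved in both directions. Of 15 tested, FGF8b raised 4 and lowered 4 (4 and 6 after trimmed-mean scaling), where 64.4% of all genes were called. BAY-876 added to FGF8b raised 4 and lowered 5, where 57.3% were. Hif1a, the oxygen-regulated transcription factor subunit, was 65.5 ± 3.35 RPKM (SD, n = 3) in controls, 138 ± 2.9 with FGF1, 109 ± 3.84 with FGF8b and 58 ± 3.41 with BAY-876. Hif1a was higher than control with FGF1, FGF8b and FGF9 (log2 changes 1.07, 0.73 and 0.57). With BAY-876 it fell by 0.91 on the log2 scale against FGF8b (limma adjusted p = 7.91e-09). Egln3, a HIF target and prolyl hydroxylase, rose from 0.624 ± 0.139 to 5.41 ± 1.2 RPKM with FGF8b and was 5.68 ± 1.25 with BAY-876. Ppargc1a, a coactivator that can drive Vegfa, was 0.318 ± 0.0634 RPKM in controls, 0.093 ± 0.0561 with FGF1, 0.0771 ± 0.0188 with FGF8b and 0.117 ± 0.051 with FGF9. It fell with each FGF (log2 changes -0.47, -0.50 and -0.41, limma adjusted p = 0.00261, 6.12e-04 and 0.00298). With BAY-876 it was 1.47 ± 0.18 RPKM (log2 change 1.77 against FGF8b, limma adjusted p = 1.50e-09). Ppargc1a reached the level for testing only through BAY-876 libraries, so its place among the tested genes is tied to that rise. Zfp36l1, whose protein promotes decay of Vegfa mRNA, fell from 45.6 ± 4.81 to 11 ± 1.04 with FGF8b and 6.09 ± 0.316 with BAY-876. The part of any of these genes in the Vegfa changes was not tested.

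Transducers downstream of the receptors moved in both directions. Of 13 tested, FGF1 raised 3 and lowered 2, where 34.4% of all genes were called, and FGF8b raised 2 and lowered 6, where 64.4% were (median log2 change -0.03 beside 0.08 over all genes). Shb, an adaptor bound to KDR, fell from 7.67 ± 0.806 to 2.5 ± 0.157 RPKM (SD, n = 3) with FGF8b, and Pik3r1, a regulatory subunit of PI3-kinase, from 24.7 ± 0.592 to 11 ± 0.724. Gab1 fell from 4.78 ± 0.255 to 2.5 ± 0.252 and Nck1 from 27.3 ± 2.69 to 18.9 ± 1.08. BAY-876 added to FGF8b raised 3 and lowered 7 of the 13, where 57.3% of all genes were called, or 3 and 4 after trimmed-mean scaling.

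The genes most like each member were named by Pearson's r of log2(RPKM + 0.5) over the 15 libraries among 12240 genes, as a description; the libraries share 5 groups, so r reflects the group means. Closest to Vegfa were Kctd15 (0.9889), Hhipl1 (0.9859) and Fxyd5 (0.9824). Among the 3 closest to Kdr were Adh1 (0.9935) and Fam214a (0.9931). Closest to Angpt1 were Col3a1, a fibrillar collagen (0.9928), Adamts12 (0.9918) and Stat3 (0.9907), and Col3a1 was 1191 RPKM in controls, 1849 with FGF1, 579 with FGF8b and 23.4 with BAY-876. Closest to Angpt2 were Stap2 (0.9778), Cgnl1 (0.9730) and Xdh (0.9727). Closest to Vegfb were Shc2 (0.9879), Cdkn1a (0.9835) and Mcoln1 (0.9831), and among the 3 closest to Vegfc were Grn (0.9821) and Pltp (0.9796).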

How the data were processed

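RNA of 15 libraries (5 groups of 3) was prepared with the TruSeq RNA kit v2 from total RNA, per the labels' protocols. CASAVA and bcl2fastq are named in the submitters' processing notes; the aligner, the counter, the build and the annotation were not given in the sources used here. The authors deposited 1 table of 168326 transcript lines with decimal commas and no stated unit. The deposited values were read as RPKM, on the evidence of the values themselves. Low ones are mostly whole multiples of 1 read per length and depth (94.3% to 95.1% of low values by library). Each library's depth was itself chosen to bring this share near its best. Lengths inferred from the steps between values (base tolerance 0.02 reads) gave whole reads for all 13869 tested genes. These lengths equal GENCODE's for 90.9% of 3476 Ensembl lines. Lines without a symbol (23172) were left out. Genes reaching 0.5 RPKM in 3 or more libraries were tested with limma 3.58.1 in R 4.3.3 (trend, all groups in 1 fit, 10 residual degrees of freedom), checked on simulated data. Read ratios have exact 95% intervals that cover counting error only. Reads in shared exons count on several lines of a gene.

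The genes and lists were chosen with earlier results of these data known. From each list up to 4 genes were named, those with the largest called change at 1 RPKM or more, and for each member the 3 genes most like it; some of the latter are not reported here. Alternatives covered pseudocounts, filters, scaling, transcript line, voom on recovered reads, the replicate block and each library left out; keeping lines without a symbol was added after the table was seen.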

Additional observations from a re-analysis of the deposited data

How the results depend on the processing

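Across the alternatives, the number of tested members called was 6 to 7 for FGF1, 6 to 7 for FGF8b and 6 to 7 for FGF9 against control, 7 to 8 for BAY-876 against FGF8b, and 0 for FGF9 against FGF8b. With no filter, 22810 genes were tested and the share of genes called fell to 21.5%, 42.5%, 43.7% and 36.7% for FGF1, FGF8b, FGF9 and BAY-876 in the comparisons above. It fell to 38.2% for FGF8b and 39.7% for FGF9 against FGF1. For FGF9 against FGF8b the share was 0.145% with no filter, 0.195% with a pseudocount of 0.1 RPKM, 0.535% on RefSeq lines, 0.447% with voom, and 0.0433% to 0.252% with 1 library left out. With only those 2 groups in the limma fit it was 0%, with 804 of 13869 genes at an unadjusted p under 0.05; there the fit had fewer samples. Members that changed sign were not called in any such fit: Vegfb for FGF8b against control was -0.05 under both scalings, Tek for BAY-876 against FGF8b -0.05 with lines summed and 0.00 to 0.18 with 1 library left out, and Pgf for FGF1 against control -0.26 to 0.00 with 1 library left out. For FGF9 against FGF8b, Tek was 0.00 on RefSeq lines, 0.02 with voom and -0.09 to 0.04 with 1 library left out, and Vegfc -0.09 to 0.09. The cause of these shifts was not tested.

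Angpt1 with FGF1 lost its call with a pseudocount of 0.1 RPKM (limma adjusted p = 0.0609) and with no filter (0.0526), and Angpt2 in FGF8b against FGF1 with voom (0.0917). Library numbers did not pair the samples: 11 of 30 same-numbered pairs had deviations correlated above 0.1 (-0.443 to 0.534), and only 2 of the 15 resembled their own number best in each other group. With the replicate block, Angpt1 passed for FGF8b against control (-0.26, limma adjusted p = 0.05) and Angpt2 for FGF9 against FGF1 (-0.28, 0.0137), and 7 members were called for FGF8b against control in place of 6. Depth limits Pgf, Flt1 and Kdr under the FGFs, which have few reads.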
